A study of Mus musculus with 20 samples.

Results

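The nuclear genes that encode the subunits of the mitochondrial respiratory chain and of ATP synthase were described across the livers of untreated mice, of mice made diabetic with streptozotocin (STZ), and of STZ mice that ate phloridzin. Members were chosen by symbol: every gene that begins Ndufa, Ndufb, Ndufc, Ndufs, Ndufv, Uqcr, Cox4, Cox5, Cox6, Cox7, Cox8 or Atp5, with Sdhb, Sdhc and Sdhd added. The rule found 89 genes of 18193 that a probe set annotated to only 1 gene could name. Each gene was read from its brightest such probe set. Of the 89, 86 were kept for the tests, beside 12947 genes kept in all. Cox7b2, Cox8b and Ndufb4 were not kept because their signals were too low, at group means from 1.6 to 8.1. Each was read from 1 probe set, the only one that names it alone, and its expression in liver was not tested otherwise. By enzyme, the 86 fell into 33 genes of complex I, 8 of its assembly factors (the Ndufaf genes), 3 of complex II, 8 of complex III, 17 of complex IV and 17 of complex V. Ndufa4 and Ndufa4l2, named after complex I, were counted with complex IV.

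The respiratory chain sits in the inner mitochondrial membrane. Complex I takes electrons from NADH and complex II takes them from succinate. Both pass them through ubiquinone to complex III, then by cytochrome c to complex IV, which reduces oxygen to water. Complexes I, III and IV pump protons, and complex V, the ATP synthase, uses the returning protons to make ATP. Liver uses this ATP for gluconeogenesis and urea synthesis, and the chain reoxidises the NADH made by fatty acid oxidation. A few subunits are encoded by mitochondrial DNA, and these were not among the members.

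The livers came from male BALB/c mice that were 6 weeks old on arrival. STZ, which is toxic to pancreatic beta cells, was given as 1 intraperitoneal dose of 185 mg/kg, and mice with a non-fasting glucose of 330 to 590 mg/dL were divided among 3 diets. All 4 groups ate the purified diet AIN93G for 14 days: untreated mice and STZ mice ate it plain, and the other STZ mice ate it with 0.1% or 0.5% phloridzin, a plant glucoside that inhibits sodium-dependent glucose transport. Each group held 6 mice, of which 5 have an array here, 1 mouse per array. Untreated mice had no injection, so STZ, its injection and the selection on glucose cannot be told apart. The model lacks insulin because its beta cells are damaged, and STZ can also reach the liver directly.

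Signals are linear hybridisation intensities that the authors scaled to the same trimmed mean on each array. Expression differences below are on the log2(signal + 16) scale, where the added 16 understates changes in dim genes. A gene was called at a Benjamini-Hochberg adjusted p under 0.05 over the 12947 genes, in limma's moderated test with 4 group means on all 20 arrays. A mean signal above 17.1, the highest median of any array, was taken as above background, and 84 of the 86 genes passed that limit. In whole liver, fewer cells of a type and less RNA per cell cannot be told apart.

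The array of replicate 4 of the 0.1% phloridzin group stood apart. Its hybridisation control bioD read 14070, against 3173 to 4431 in the rest of its group. For this group against STZ and untreated mice, main counts of called members and medians by complex are therefore given with and without it. Other values that involve this group include it unless stated, among them the F test count, counts at an unadjusted p and counts without overlap. Values of the cell type markers are given only with it. All 7 hepatocyte markers on the array were above background. Their summed signal was 79300 to 88900 in untreated mice, 59500 to 84100 in STZ mice, 75100 to 159000 with 0.1% phloridzin and 68700 to 81800 with 0.5%. The sum of 5 pancreas markers, of which 2 were above background, was 1460 to 1960 in untreated mice and 420 to 887 in STZ mice. This sum was mainly the signal of Cela1, at a mean of 835.5 over all arrays, against 23.57 for Prss2. Cela2a, Cpb1 and Cpa1 were below background, at means of 6.07, 2.57 and 1.39. Whether these livers held pancreatic tissue was not tested. Of 12 marker lists, the stellate cell list had 2 genes called lower in STZ mice. The pancreas, erythroid and cholangiocyte lists each had 1 lower, and the Kupffer cell, endothelium and adipocyte lists each had 1 higher. Of the markers on the array, 0 of 3 for adipocytes, 1 of 4 for cholangiocytes and 1 of 2 for erythroid cells were above background. The part of these marker differences in the results below was not tested. The ratio of 3' to 5' signal of beta-actin, a measure of RNA integrity and labelling, ran from 1.62 to 2.52 over the arrays.

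The promoters of 4 members whose signals are described below are printed first, because the factors that bind such promoters were themselves measured. NRF1, GABPA, YY1 and ERR-alpha (gene Esrra) are transcription factors known to act on genes of the respiratory chain. Each sequence covers 250 bases before and 50 after the RefSeq start (build GRCm38.p6), 5′ to 3′ on the strand of the gene, and capitals mark matches to a motif on either strand. Sdhd lies at chr9:50603800-50604099 on the minus strand, and its capitals are the NRF1 motif (GCGCA, any base, then GCGC) and the reverse strand of the ERR-alpha motif TCAAGGTCA. Cox8a lies at chr19:7217567-7217866 on the minus strand and holds the GABPA motif CCGGAAGT 2 times, both on the reverse strand. Ndufs4 lies at chr13:114388045-114388344 on the minus strand and holds the YY1 motif AAGATGGCG. Ndufa10, the subunit with the smallest p between STZ and untreated mice, lies at chr1:92473709-92474008 on the minus strand and holds none of the 4 motifs.
Sdhd: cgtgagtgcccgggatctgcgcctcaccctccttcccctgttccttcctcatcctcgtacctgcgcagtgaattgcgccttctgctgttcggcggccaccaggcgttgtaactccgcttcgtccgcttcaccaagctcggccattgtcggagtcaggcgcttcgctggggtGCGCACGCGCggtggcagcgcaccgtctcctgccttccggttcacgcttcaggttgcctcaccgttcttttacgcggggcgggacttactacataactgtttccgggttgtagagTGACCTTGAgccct
Cox8a: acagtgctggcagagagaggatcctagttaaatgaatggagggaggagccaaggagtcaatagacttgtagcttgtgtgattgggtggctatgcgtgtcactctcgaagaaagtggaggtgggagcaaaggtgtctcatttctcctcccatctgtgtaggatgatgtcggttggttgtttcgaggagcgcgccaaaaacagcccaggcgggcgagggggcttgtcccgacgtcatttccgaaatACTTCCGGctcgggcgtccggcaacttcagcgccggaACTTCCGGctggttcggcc
Ndufs4: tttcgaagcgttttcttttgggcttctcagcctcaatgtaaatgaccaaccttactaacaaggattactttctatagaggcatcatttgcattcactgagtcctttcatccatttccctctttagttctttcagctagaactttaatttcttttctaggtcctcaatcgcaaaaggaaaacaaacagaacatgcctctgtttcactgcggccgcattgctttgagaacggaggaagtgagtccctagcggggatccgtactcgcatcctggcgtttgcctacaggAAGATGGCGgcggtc
Ndufa10: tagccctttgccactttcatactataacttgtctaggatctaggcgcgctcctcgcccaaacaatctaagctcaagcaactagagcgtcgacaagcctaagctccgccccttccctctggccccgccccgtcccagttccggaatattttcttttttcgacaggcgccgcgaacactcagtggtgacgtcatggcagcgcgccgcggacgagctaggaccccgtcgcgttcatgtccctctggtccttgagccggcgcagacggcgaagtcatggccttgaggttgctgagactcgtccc

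RefSeq held 78 such promoters for 73 of the 89 members. The NRF1 motif was in 17 of the 78 (21.8%), against 4.6% of all 32851 mouse promoters of this length. YY1 was in 7 (8.97% against 1.4%), GABPA in 5 (6.41% against 3.89%) and ERR-alpha in 2 (2.56% against 0.423%). The NRF1 motif reads nearly the same on both strands, so 1 place can match on each strand. Among the 15 members called in any comparison, 11 had a promoter, and each motif was present in 1 of the 11. Only Sdhd, Cox8a and Ndufs4, all printed above, held any of the motifs. The other called members with a promoter held none, as Ndufa10 did. A match of letters is not a bound site.

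STZ mice were compared with untreated mice first, to ask which subunits differed in diabetic liver. Of the 86 genes 5 were called, all higher in STZ mice: Ndufa10 and Ndufs1 of complex I, Uqcrc2 of complex III, and the dim genes Cox6b2 and Cox7c of complex IV. This was 5.81% of the members, where 13.8% of all genes were called (6.9% higher and 6.89% lower). The members' differences were small and mostly above 0. Their median was 0.06 in log2 (1.04-fold) against -0.05 over all genes, and 61 of 86 (70.9%) were above 0 against 42.7% of all genes. The median ran from 0.03 (without STZ replicate 4) to 0.09 (without untreated replicate 5) with 1 array left out, and was 0.14 with each array centred on its median, where that of all genes was 0.03. At an unadjusted p under 0.05, 18 were higher and 2 lower, or 23.3% against 28.4% of all genes. A member's 95% interval reached 0.22 to either side at the median, so a change of 1.1-fold in 1 gene was not detectable with these arrays.

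**Figure D1:**
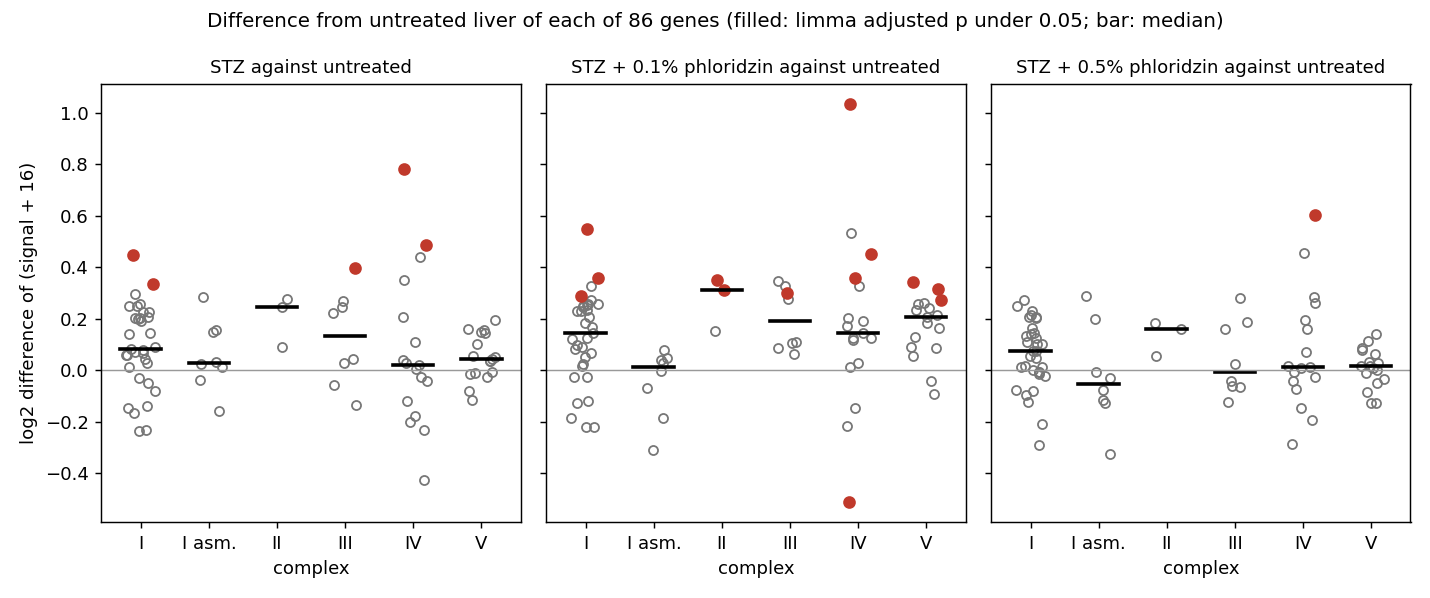
Difference from untreated mice on the log2(signal + 16) scale (vertical axis) for each of the 86 genes, by complex, in STZ mice and in STZ mice fed 0.1% or 0.5% phloridzin. Filled points are called by limma and bars mark medians; 61 of 86 genes lay above 0 in STZ mice, 70 with 0.1% phloridzin and 52 with 0.5%.

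Ndufa10, an accessory subunit of the membrane arm of complex I, gave 1740, 1934, 1944, 1944 and 1483 in the untreated mice and 2395, 2418, 2477, 2451 and 2559 in the STZ mice. Every STZ array was above every untreated array. The difference was 0.45 ± 0.11 (SE, n = 5 per group), or 1.36-fold, with a limma adjusted p of 0.00902. The group fed 0.1% phloridzin gave 2134, 2638, 2754, 2734 and 3009, again all above the untreated arrays, and the difference from untreated was 0.55 ± 0.11 (limma adjusted p = 0.00199). The group fed 0.5% gave 2622, 1885, 2303, 1959 and 2194. These overlapped with the untreated values, at a difference of 0.27 ± 0.11 (limma adjusted p = 0.102). A second, dim probe set of Ndufa10 (mean signal 32.3) differed by -0.16 ± 0.18 between STZ and untreated mice.

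Ndufs1 is the largest subunit of complex I and carries iron-sulphur clusters of its electron path. Its signals were 832.3, 923.8, 884, 963.4 and 774.1 in untreated mice and 1028, 1062, 1023, 1217 and 1219 in STZ mice, with no overlap. The difference was 0.34 ± 0.11, or 1.26-fold (limma adjusted p = 0.0394), and with 0.1% phloridzin it was 0.36 ± 0.11 against untreated (limma adjusted p = 0.0248). Signals with 0.1% phloridzin were 965.5 to 1406 and those with 0.5% were 875.1 to 1153.

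The 6 core subunits of complex I measured here, which carry its cofactors or its ubiquinone site, were all above 0 in STZ mice, with a median of 0.24. The 27 accessory subunits had a median of 0.08, and 19 were above 0. Ndufs3, a core subunit, read 2138 to 2294 in untreated and 2390 to 2888 in STZ mice without overlap, at 0.23 ± 0.09 (limma adjusted p = 0.0826). Ndufv1, which binds NADH, differed by 0.25 ± 0.11 (limma adjusted p = 0.124), and Ndufv2 beside it by 0.25 ± 0.10 (limma adjusted p = 0.109). Ndufs7 and Ndufs8, which lie near the ubiquinone site, differed by 0.06 and 0.03. The only gene of complex I that was lower at an unadjusted p under 0.05 was Ndufv3, an accessory subunit, at -0.23 ± 0.10 (limma adjusted p = 0.131). None of the 8 assembly factors was called; the smallest p was that of Ndufaf4, at 0.29 ± 0.18 (limma adjusted p = 0.305), which ran from 359.3 to 418.1 in untreated and from 342.6 to 663.8 in STZ mice.

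The probe set that was read mattered for complex I. With each of the 23016 single-gene probe sets that passed the filter tested as a feature of its own, an alternative chosen after seeing the data, 9 members had at least 1 probe set called between STZ and untreated mice (8 higher, 1 lower). This was 10.5% of the members against 15% of all genes, and 4 of the 5 genes called above were among the 9. Ndufs1 was not among them. A second probe set of Ndufv1 (mean signal 2184) gave 1682, 1566, 1512, 1673 and 1479 in untreated mice and 2005, 2181, 2354, 2621 and 2620 in STZ mice. The groups did not overlap, and the difference was 0.56 ± 0.13, or 1.48-fold (limma adjusted p = 0.00661). A second probe set of Ndufa5, an accessory subunit of the matrix arm (mean signal 948.6), gave 620.7, 688, 689.5, 767.9 and 597 against 844.6, 1129, 1048, 1184 and 1113. That was 0.65 ± 0.14, or 1.56-fold (limma adjusted p = 0.00525), where the brightest probe set of Ndufa5 gave 0.26 ± 0.14.

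Of 45 members with several probe sets above background, 21 had probe sets that pointed in different directions between STZ and untreated mice. Ndufb6, an accessory subunit of the membrane arm, gave -0.14 from its brightest probe set and 0.27 ± 0.09 from another. In complex V, Atp5h gave -0.12 and 0.33, and Atp5pb -0.03 and 0.32, from the brightest and the next probe set. Ndufc2 gave 0.07 from its brightest probe set, 0.34 and 0.35 from the next 2 and -0.58 from a dim one. For Ndufs8, 6 probe sets ran from -0.61 to 0.19, the lowest from a dim one. Over the 72 further probe sets of members above background, 53 were above 0 and the median was 0.11. Which transcripts or transcript ends these probe sets read was not tested.

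Complex II, succinate dehydrogenase, links the citric acid cycle to the chain. All 3 of its measured genes were above 0 in STZ mice, with a median of 0.25, and none was called. Sdhb, the iron-sulphur subunit, gave 3534, 3632, 3641, 3840 and 4001 in untreated mice and 4055, 4189, 4233, 5118 and 4595 in STZ mice. These did not overlap, at 0.25 ± 0.10 (limma adjusted p = 0.113). With 0.1% phloridzin Sdhb read 3918, 4987, 4734, 5235 and 5035, a rise of 0.35 ± 0.10 over untreated (1.28-fold, limma adjusted p = 0.0213). Sdhd, a membrane anchor, gave 1678, 1700, 1654, 1686 and 1574 in untreated mice and 1661, 2081, 1950, 2271 and 2153 in STZ mice. Its replicate 1 of the STZ group lay among the untreated arrays and the other 4 above them, at 0.28 ± 0.10 (limma adjusted p = 0.0839). With 0.1% phloridzin Sdhd rose by 0.31 ± 0.10 over untreated (limma adjusted p = 0.0456), and all 5 arrays, 1798 to 2461, were above the untreated ones. Sdhc, the other anchor, averaged 2152 ± 116 in untreated and 2291 ± 162 (SD, n = 5) in STZ mice, at 0.09 ± 0.09. Averaged over the 3 genes on the log2 scale, complex II stood at 11.22 ± 0.03 (SD) in untreated mice, 11.42 ± 0.12 in STZ mice, 11.49 ± 0.14 with 0.1% and 11.35 ± 0.14 with 0.5% phloridzin. In each of the 3 STZ groups 4 of 5 arrays were above every untreated array.

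**Figure D2:**
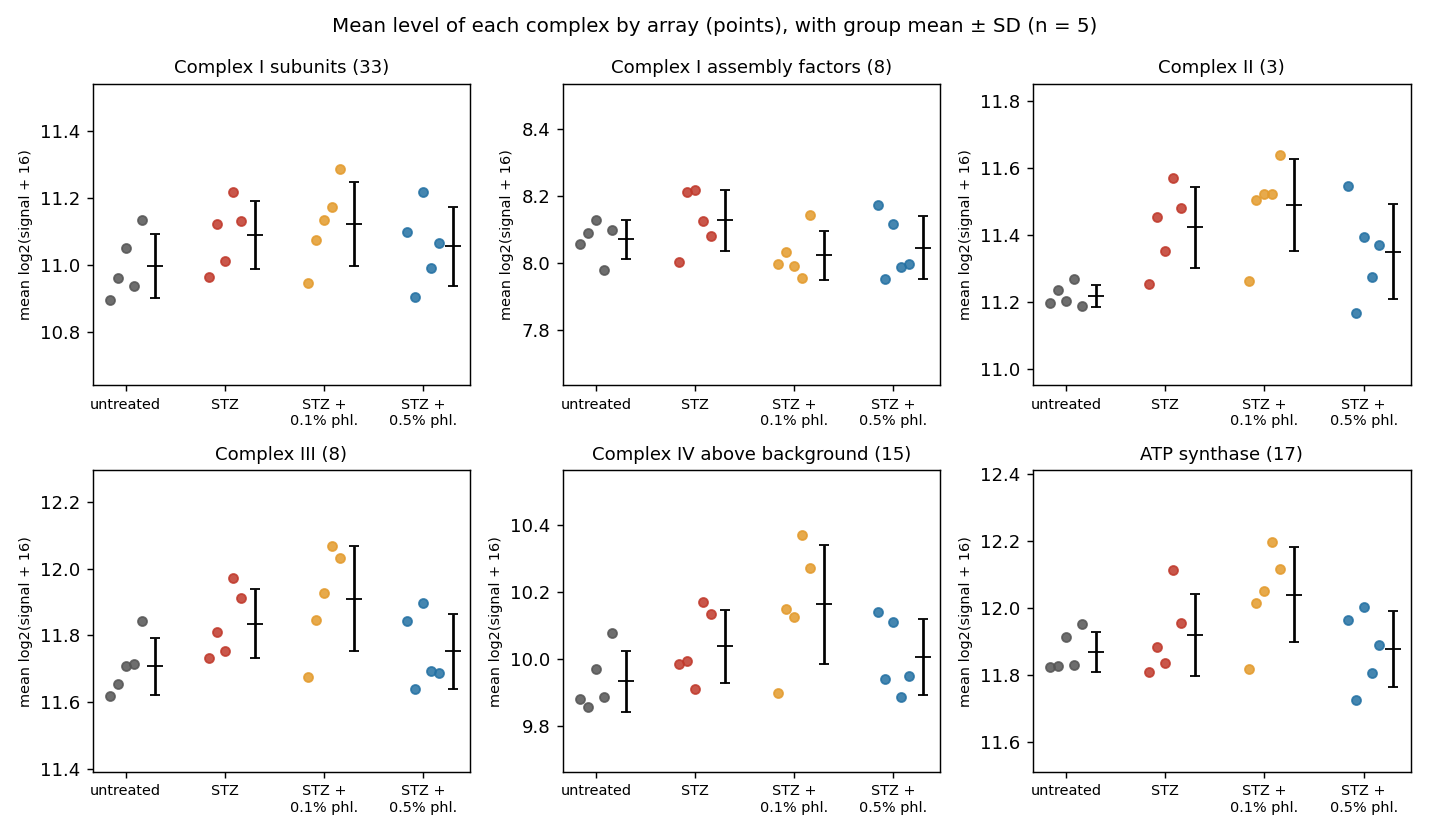
Mean log2(signal + 16) of the genes of each complex on each array (points) by group, with the group mean and SD (bars, n = 5). Complex II averaged 11.22 in untreated and 11.42 in STZ mice, and the groups of every complex overlapped.

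In complex III, the cytochrome bc1 complex, 6 of 8 genes were above 0 in STZ mice and the median was 0.13. Uqcrc2, a core protein of the matrix side, gave 1607, 1720, 1809, 2037 and 1960 in untreated mice and 2083, 2339, 2241, 2595 and 2829 in STZ mice. The groups did not overlap, and the rise was 0.40 ± 0.11, or 1.32-fold (limma adjusted p = 0.0248). A second probe set of Uqcrc2 (mean signal 1571) gave 0.19 ± 0.14. Uqcrfs1, the Rieske iron-sulphur protein, gave 2496, 2509, 2349, 2482 and 2504 against 2662, 3069, 2747, 3146 and 3066, again without overlap, at 0.25 ± 0.09 (limma adjusted p = 0.0852). With 0.1% phloridzin Uqcrfs1 rose by 0.30 ± 0.09 over untreated (limma adjusted p = 0.032), although its replicate 1, at 2457, lay within the untreated range. Uqcrc1, the other core protein, read 2418 to 2662 in untreated and 2748 to 3159 in STZ mice, at 0.22 ± 0.13 (limma adjusted p = 0.257).

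Complex IV, cytochrome c oxidase, held the dimmest members and the widest range of differences. Its median was 0.02 between STZ and untreated mice, with 10 of 17 genes above 0. Cox4i1, the main isoform of a regulatory subunit, averaged 5837 ± 545 in untreated and 5908 ± 410 in STZ mice. Cox5a, which lies beside it, averaged 6678 ± 527 and 5689 ± 621, at -0.23 ± 0.13 (limma adjusted p = 0.243). Cox8a, the liver form of the smallest subunit, gave 1676, 1560, 1603, 1689 and 1770 in untreated mice and 1958, 1979, 1875, 2507 and 2330 in STZ mice. The groups did not overlap, but the difference of 0.35 ± 0.12 (1.27-fold) narrowly missed the threshold (limma adjusted p = 0.0544). With 0.1% phloridzin Cox8a gave 1833, 2178, 2500, 2237 and 2734 and rose by 0.45 ± 0.12 over untreated (limma adjusted p = 0.0123). Ndufa4 gave 3251, 3069, 2982, 3394 and 3143 in untreated mice and 3866, 3095, 3634, 3891 and 3845 in STZ mice. That was 0.21 ± 0.09 (limma adjusted p = 0.119). With 0.1% phloridzin it gave 4047, 3875, 3669, 4492 and 4261, all above the untreated arrays, a rise of 0.36 ± 0.09 (1.28-fold, limma adjusted p = 0.0079).

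The 2 called genes of complex IV were faint. Cox6b2, the testis isoform of subunit 6B, gave 10.34, 17.21, 11.57, 17.81 and 23.51 in untreated mice and 36.32, 36.7, 19.53, 57.26 and 51.42 in STZ mice. It was the only member called in all 3 comparisons with untreated mice, at 0.78 ± 0.20 in STZ mice (limma adjusted p = 0.0119), 1.04 ± 0.20 with 0.1% phloridzin (0.00153) and 0.60 ± 0.20 with 0.5% (limma adjusted p = 0.0486). The untreated mean of 16.1 was below the background limit. Its partner Cox6b1, the isoform of most tissues, differed by 0.01 ± 0.10. Cox7c gave 10.4 to 20.36 in untreated and 17.28 to 40.51 in STZ mice, at 0.49 ± 0.14 (limma adjusted p = 0.0267); only dim probe sets name Cox7c alone, so its main signal was not analysed here. The muscle isoform Cox6a2 was not above background, and Cox7a1, the heart and muscle isoform, differed by 0.44 ± 0.23 (limma adjusted p = 0.215). Cox8c, a testis isoform, read 94.23 to 125.1 in untreated and 42.83 to 100.3 in STZ mice, at -0.43 ± 0.19 (limma adjusted p = 0.154). Of the other subunits, Cox5b differed by 0.03, Cox6a1 by -0.18, Cox7a2 by -0.03 and Cox7a2l, which helps join complexes III and IV, by 0.11, and none of these was called.

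Complex V had no gene called between STZ and untreated mice, and 11 of 17 were above 0 with a median of 0.04. Atp5o, a subunit of the stalk, read 2090 to 2271 in untreated and 2332 to 2770 in STZ mice without overlap, at 0.19 ± 0.10 (limma adjusted p = 0.225). In all, 9 members did not overlap between these groups, all higher in STZ mice (10.5% against 12.9% of all genes, 6.12% of them higher). The catalytic pair Atp5a1 and Atp5b differed by 0.14 ± 0.09 and 0.15 ± 0.09. Atp5g1, of the proton-driven ring, differed by 0.16 ± 0.10, and Atp5k, of the membrane part, by -0.01 ± 0.12.

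**Figure D3:**
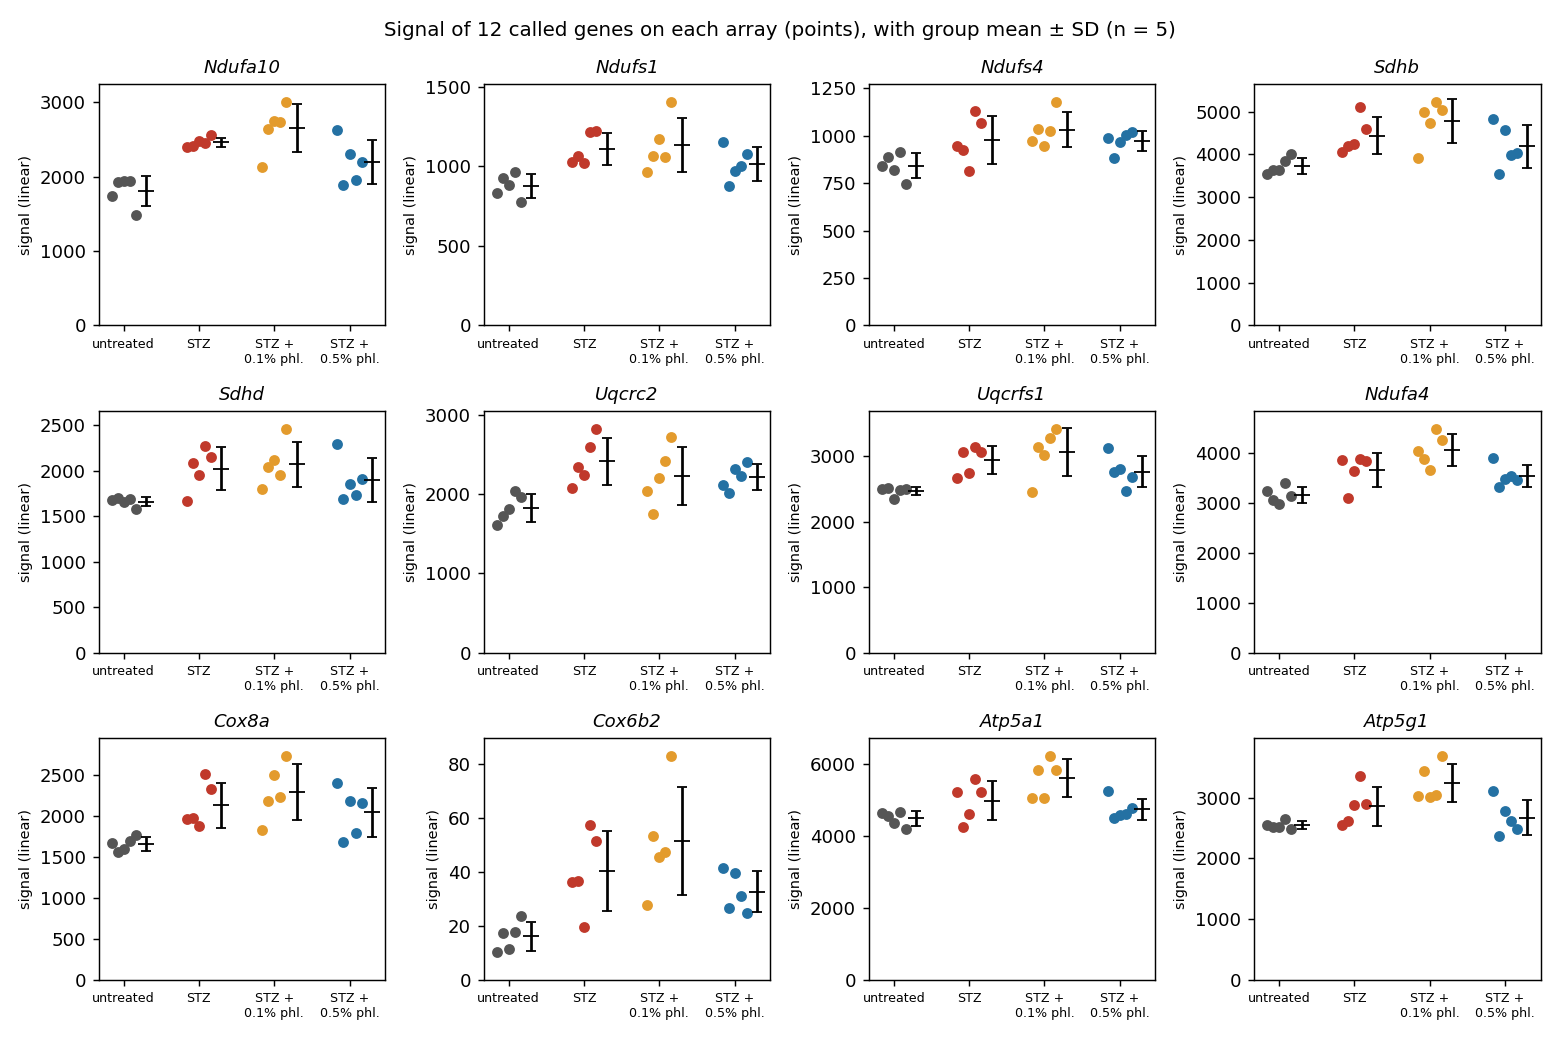
Signal (linear intensity, vertical axes from 0) of 12 genes on each array by group, with group means. Ndufa10, Ndufs1 and Uqcrc2 did not overlap between untreated and STZ mice, and Atp5a1 and Atp5g1 overlapped there but not between untreated mice and mice fed 0.1% phloridzin.

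The phloridzin groups were then compared with STZ mice, to ask whether either dose moved the subunits. No member was called at either dose, and none was called between the doses; limma called 0% of all genes in each of these comparisons. At an unadjusted limma p under 0.05 there were 3 members with 0.1% phloridzin, all higher (3.49% against 5.29% of all genes, 2.61% higher and 2.68% lower). With 0.5% there were 2, 1 in each direction (2.33% against 4.8%, 3.04% higher and 1.77% lower). Between the doses there were 8, of which 7 were lower with 0.5% (9.3% against 6.49%, 4.23% higher and 2.26% lower). No member's groups were free of overlap in these 3 comparisons, where 0.68%, 0.842% and 0.803% of all genes were. With 0.1% phloridzin 67 of 86 (77.9% against 48.8% of all genes) were above STZ mice at a median of 0.06, and 61 without replicate 4. With 0.5% 24 of 86 (27.9% against 55.3%) were above STZ mice at a median of -0.04. With 0.5% against 0.1% 14 of 86 were above 0 (16.3% against 55.3%), and 15 without replicate 4. Under quantile normalization the first count became 35 and its median -0.01, so the direction at 0.1% rested on the scaling. With 1 array left out the median at 0.1% ran from 0.02 (without STZ replicate 1) to 0.115 (without replicate 1 of the 0.1% group). The hepatocyte markers moved the same ways as the members in some comparisons only. All 7 were above STZ mice with 0.1% phloridzin, at a median of 0.31 with 5 at an unadjusted limma p under 0.05. All 7 were lower with 0.5% than with 0.1%, at a median of -0.32. Both of these marker medians include replicate 4 of the 0.1% group. With 0.5% against STZ mice 4 of the 7 markers were above 0, at a median of 0.04. Between STZ and untreated mice 3 of the 7 were, at -0.29. In these last comparisons the markers' medians had the opposite sign to those of the members. Their part in the members' values was not tested. Both doses share the STZ arrays.

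By complex, the medians with 0.1% phloridzin against STZ mice were 0.02 for complex I, 0.06 for complex II, 0.07 for complex III, 0.14 for complex IV and 0.11 for complex V, and -0.11 for the assembly factors. Without replicate 4 they were 0.04, 0.05, 0.04, 0.08 and 0.06, and -0.09. With any 1 array left out complex I ran from -0.01 to 0.08 and complex III from 0.02 to 0.13. With 0.5% they were -0.04, -0.09, -0.09, -0.02 and -0.04 in the same order, and -0.09 for the assembly factors. The smallest p among the assembly factors was that of Ndufaf5 at 0.1%, at -0.22 ± 0.12 (limma adjusted p = 0.921), and that of Ndufaf3 at 0.5%, at -0.15 ± 0.10 (limma adjusted p = 0.996). The 3 genes with an unadjusted p under 0.05 at 0.1% were Atp5g3, of the ring of complex V, Cox6a1, the liver isoform of subunit 6A, and Uqcrb, which helps bind ubiquinone in complex III. Atp5g3 gave 8738, 6591, 7169, 8526 and 7434 in STZ mice and 7826, 10160, 8532, 14120 and 8199 with 0.1% phloridzin. The highest value was that of replicate 4, and the difference was 0.32 ± 0.13 (limma adjusted p = 0.921). Replicate 4 was also highest for Cox6a1, at 13280 against 7864 to 9335 in its group, and for Uqcrb, at 18360 against 10640 to 12680. Without it the differences were 0.175 for Atp5g3, 0.17 for Cox6a1 and 0.11 for Uqcrb, where they had been 0.32, 0.30 and 0.24. Uqcrc1 was lowest with 0.5% phloridzin, at -0.26 ± 0.13 against STZ mice (limma adjusted p = 0.996) and -0.39 ± 0.13 against 0.1% (limma adjusted p = 0.753). Its replicate 5 read 1714, where the other 4 read 2402 to 3060.

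The STZ mice fed phloridzin were also set against untreated mice, and these comparisons share the untreated arrays with the first. With 0.1% phloridzin 13 of 86 members were called, 12 higher and 1 lower (15.1% against 16.7% of all genes, of which 7.76% were higher and 8.98% lower). At an unadjusted limma p under 0.05 there were 29 (33.7% against 30.8%). Of these 26 were higher (30.2% against 13.5% of all genes) and 3 lower (3.49% against 17.3%). In all, 10 did not overlap with untreated mice, all higher (11.6%, where 6.02% of all genes did so). The median was 0.14 against -0.04 over all genes, and 70 members (81.4%) were above 0 against 43.6%. With quantile normalization the median was 0.07 and 61 were above 0. Of the 7 hepatocyte markers, 2 were called higher in this comparison, with replicate 4 included. The 12 that rose were Ndufa10, Ndufs1 and Ndufs4 of complex I, Sdhb and Sdhd, Uqcrfs1, Ndufa4, Cox8a and Cox6b2 of complex IV, and Atp5a1, Atp5b and Atp5g1 of complex V. The lower one was Cox6a2, which was not above background. By complex, the medians were 0.14 for complex I, 0.31 for complex II, 0.19 for complex III, 0.15 for complex IV and 0.21 for complex V, and 0.01 for the assembly factors. Without replicate 4 they were 0.13, 0.32, 0.165, 0.10, 0.14 and 0.01. Without replicate 4 the count was 7, of which 6 were higher (8.14% against 12.9% of all genes), and the median was 0.10. Ndufa10, Ndufs1, Ndufa4, Cox8a, Cox6b2, Atp5g1 and Cox6a2 then passed. Sdhb, Sdhd, Uqcrfs1, Ndufs4, Atp5a1 and Atp5b did not, at limma adjusted p from 0.0566 to 0.132. Without replicate 1, which read lowest for 58 of 84 genes in its group, the count was 23, and without replicate 5 it was 4. The shares of all genes called in these fits are not given here, so the counts cannot be set against them.

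The ATP synthase genes passed the test only against untreated mice and only at this dose, a difference between doses that did not itself pass. Atp5a1, the alpha subunit of the catalytic head, gave 4636, 4535, 4360, 4660 and 4199 in untreated mice and 5041, 5834, 5036, 6215 and 5831 with 0.1% phloridzin. The groups did not overlap, and the rise was 0.32 ± 0.09, or 1.24-fold (limma adjusted p = 0.0216). With 0.5% it gave 5236, 4502, 4570, 4588 and 4763, at 0.08 ± 0.09 (limma adjusted p = 0.632). Atp5g1 gave 2547, 2520, 2520, 2649 and 2479 in untreated mice and 3028, 3430, 3003, 3048 and 3686 with 0.1% phloridzin. Its rise was 0.34 ± 0.10, or 1.27-fold (limma adjusted p = 0.0176), and the difference between the doses was -0.28 ± 0.10 (limma adjusted p = 0.753). Atp5b, the catalytic beta subunit, rose by 0.27 ± 0.09 (limma adjusted p = 0.0474), with 1 of 5 arrays within the untreated range. With 1 array left out this call held in 3 of 20 fits. Ndufs4, an accessory subunit of the electron-input arm of complex I, read 745 to 914 in untreated mice and 944.8 to 1180 with 0.1% phloridzin, a rise of 0.29 ± 0.10 (limma adjusted p = 0.0445). Its call held in 10 of 20 such fits, that of Sdhd in 6 and that of Uqcrfs1 in 12. Those of Ndufa10, Ndufa4, Cox8a and Cox6b2 held in all 20.

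With 0.5% phloridzin only Cox6b2 was called against untreated mice (1.16% against 12.7% of all genes, 6.53% higher and 6.18% lower). Of the 86, 52 were above 0 and the median was 0.02. The call lay at the threshold. With 1 of the 20 arrays left out it held in 6 of 20 fits, the largest limma adjusted p being 0.128. It was lost without replicate 4 of the 0.1% group (limma adjusted p = 0.0556), with quantile normalization (0.0573) and without a filter on low signal (limma adjusted p = 0.0653). Cox6b2 read 24.76 to 41.61 with 0.5% phloridzin, above every untreated array, and it and Ndufb3 were the 2 members without overlap (2.33% against 11.1% of all genes, 5.41% of them higher). Ndufb3, an accessory subunit of the membrane arm, read 1282 to 1695 in untreated mice and 1071 to 1243 with 0.5% phloridzin. The groups did not overlap and the difference was -0.29 ± 0.10 (limma adjusted p = 0.0501). With any probe set of a gene counted, 23 members were called with 0.1% phloridzin (26.7% against 19.9% of all genes) and 3 with 0.5% (3.49% against 13.9%): Ndufa5, Ndufc2 and Ndufv1. The second probe set of Ndufv1 was higher than in untreated mice by 0.70 ± 0.13 with 0.1% phloridzin (limma adjusted p = 0.00115) and by 0.45 ± 0.13 with 0.5% (limma adjusted p = 0.0275). Over all 4 groups limma's F test called Ndufa10, Ndufa4, Cox6b2 and Cox6a2 (4.65% against 12.9% of all genes).

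**Figure D4:**
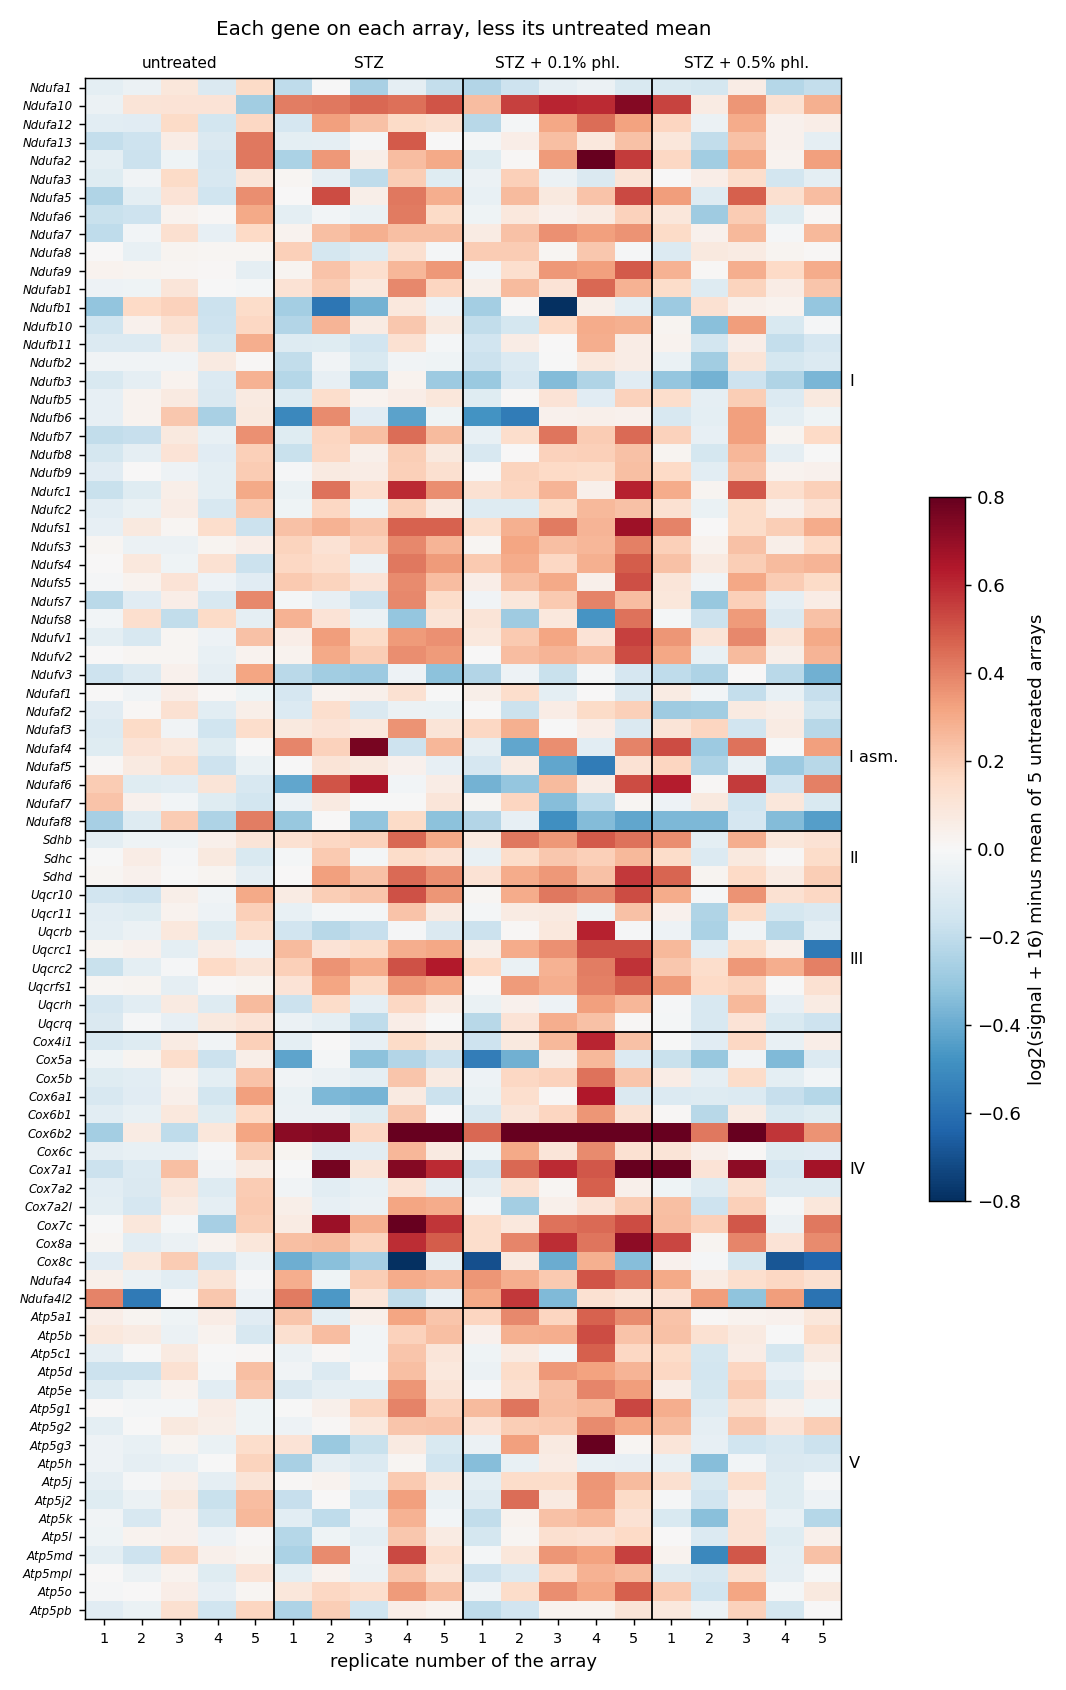
Signal of the 84 genes above background (rows, by complex) on the 20 arrays (columns, by group), as log2(signal + 16) minus the mean of the untreated arrays. Whole columns are shifted: replicate 1 of the 0.1% group was the lowest of its group for 58 genes and replicate 4 of the STZ group the highest for 53.

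The members moved together from array to array within a group. Among the 84 genes above background, untreated replicate 5 read highest of its group for 46, STZ replicate 4 for 53 and replicate 3 of the 0.5% group for 47. In the 0.1% group replicates 4 and 5 read highest for 35 and 37, and replicate 1 read lowest for 58. Averaged over the 78 subunit genes on the log2 scale, the groups stood at 10.90 ± 0.08 (SD, untreated), 10.99 ± 0.10 (STZ), 11.07 ± 0.13 (0.1%) and 10.96 ± 0.11 (0.5%). The gaps from untreated were 0.09 for STZ, 0.16 for 0.1% and 0.05 for 0.5% phloridzin. The pooled SD was 0.108, which is the spread of single arrays and not the error of a gap between means. No test was run on these means. In 2 of 4 groups the array with the highest beta-actin ratio also had the highest subunit mean. These were untreated replicate 5 (ratio 2.48) and replicate 3 of the 0.5% group (ratio 2.52).

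**Figure D5:**
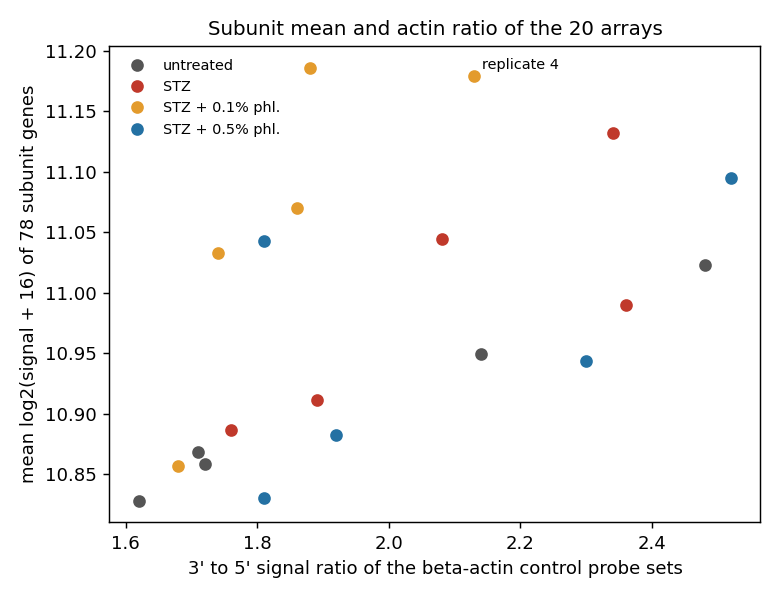
Mean log2(signal + 16) of the 78 subunit genes (vertical axis) against the 3' to 5' signal ratio of beta-actin (horizontal axis) for the 20 arrays, coloured by group. The 2 arrays with the highest ratios, 2.48 and 2.52, had the highest subunit means of their groups.

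In a fit with this ratio as a covariate, added after seeing the data, the slope on the ratio was above 0 for 73 of 86 members, where it was for 48.4% of all genes. The slope was called for Uqcrh, Ndufa2, Ndufa5 and Ndufb10 (4.65% against 0.734%). The STZ against untreated median of the members was then 0.01, with 50 of 86 above 0. Of the 86, 5 were called (4 higher, 1 lower), where 12.5% of all genes were called. By complex the medians were 0.01 for complex I, 0.21 for complex II, 0.10 for complex III, -0.03 for complex IV and -0.01 for complex V. The count for 0.1% phloridzin against untreated became 21, of which 20 were higher (24.4% against 19.1% of all genes). These values rest on 20 arrays, and the cause of the shared shift was not tested.

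Other mitochondrial genes on the arrays gave the setting for these values, and their counts of calls stand against the 13.8% of all genes called between STZ and untreated mice (6.9% higher and 6.89% lower). The remaining components measured, Sdha (the flavoprotein of complex II), Cyc1 (cytochrome c1) and Cycs (cytochrome c), differed by 0.07, 0.14 and -0.10 between STZ and untreated mice, and none of the 3 was called. Of 14 genes of the citric acid cycle 7 were higher and 1 lower, with a median of 0.37. Fumarase (Fh1), which acts just after succinate dehydrogenase, rose by 0.87 ± 0.17 (limma adjusted p = 0.00239), Ogdh by 0.62 ± 0.14 (limma adjusted p = 0.0062) and Idh3a by 0.58 ± 0.15 (limma adjusted p = 0.0121). Citrate synthase (Cs), the entry enzyme, fell by 0.75 on the log2 scale ± 0.17 (limma adjusted p = 0.00541). Of 20 genes of carriers and protein import 6 were higher and 0 lower, with a median of 0.18. They included Tomm40, the import pore, at 0.47 ± 0.10 (limma adjusted p = 0.00407), and Vdac2, an outer membrane channel, at 0.43 ± 0.10 (limma adjusted p = 0.00518).

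Among 20 regulators of mitochondrial biogenesis 3 were higher and 1 lower. The coactivator Ppargc1b rose by 0.74 ± 0.16 (1.67-fold, limma adjusted p = 0.00407) and Polg2, of the mitochondrial DNA polymerase, by 0.73 ± 0.19 (limma adjusted p = 0.0152). The coactivator Ppargc1a rose by 1.46 ± 0.30 (limma adjusted p = 0.00265). Gabpa fell by 0.35 on the log2 scale ± 0.09 (limma adjusted p = 0.0126). Of the factors whose motifs were searched above, Esrra differed by 0.44 ± 0.19 (limma adjusted p = 0.133) and Nrf1 by -0.18 ± 0.12 (limma adjusted p = 0.363). Yy1 was not called. Tfam, which packages mitochondrial DNA, differed by 0.01 ± 0.09. Of 76 mitochondrial ribosomal protein genes 5 were higher and 2 lower at a median of 0.10, and of 38 assembly factors outside the symbol rule only Coa6 was called, at 0.70 ± 0.13 (limma adjusted p = 0.00148).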

How the data were processed

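Liver RNA of 20 mice, 5 in each of 4 groups, was hybridised to 20 single-colour Affymetrix arrays of 45101 probe sets, and replicates were separate mice. The authors deposited 1 intensity per probe set and array on a linear scale, without a stated summary method; the software and its version are not given in the sources used here. On every array these values have a mean of 100 once 2% at each end is trimmed.

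Groups were taken from the sample titles, which number the replicates. Probe sets annotated to 1 gene (34945) were used, and the brightest stood for the gene. Genes at or above the 40th percentile of mean signal (8.48) were kept. A model of 4 group means on log2(signal + 16) was fitted with lmFit and eBayes (limma 3.58.1, R 4.3.3; 16 residual and 4.56 prior degrees of freedom), 2-sided, with Benjamini-Hochberg adjustment over all 12947 genes, and was tested on simulated data. Figures were drawn with matplotlib 3.10.9. The number of arrays limits the precision, and intensities give no read depth. Replicates correlated at 0.9711 to 0.9853 within groups and 0 arrays were identical.

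The members, the gene lists and the markers were chosen with earlier results of these data known, so counts over them are descriptions. Members were named if called, if they had the smallest p of a complex, if they were in a panel of well-known subunits, or if their probe sets disagreed; a few, such as Ndufa5, Ndufv2, Ndufs7, Cox6b1, Cox8c and Ndufb3, were named after their values were seen. From the other lists up to 4 called genes with the smallest p were named, with the searched factors and remaining chain components added after their values were seen. Ndufa11, Ndufs6 and Cox7b, named only by probe sets of several or no genes, were not analysed here. Alternatives were other scalings, filters, pseudocounts, array weights, a trended robust prior, the mean of probe sets, the replicate number as a block, and leaving out each array in turn. Promoter sequences are from RefSeq.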

Additional observations from a re-analysis of the deposited data

Results flagged for a closer look

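Among 208 sets of 5 values, 11 held 1 array far from the other 4 by Dixon's ratio, which chance gives in about 1 of 20 sets. Values of genes here are log2(signal + 16).

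Among untreated mice, Uqcrfs1 was low in replicate 3 at 11.21 (others 11.29 to 11.3) and Ndufa8 was low in replicate 2 at 11.17 (others 11.23 to 11.25). Cox8b, which is below background, was high in replicate 4 at 4.808 (others 4.052 to 4.162). Atp5h was high in replicate 5 at 12.32 (others 12.07 to 12.14). Among STZ mice, replicate 4 was high for the assembly factor Ndufaf3 at 8.333 (others 8.05 to 8.081) and for Cox7a2 at 13.09 (others 12.89 to 12.95). The hybridisation control bioD was high in STZ replicate 1, at a signal of 3795 (others 3097 to 3261).

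In the 0.1% phloridzin group replicate 4 was high for the control bioD, at a signal of 14070 (others 3173 to 4431), and for the control cre, at 33370 (others 10400 to 14730). In the 0.5% phloridzin group Cox4i2, below background, was high in replicate 1 at 5.078 (others 4.523 to 4.646), and Ndufb6 was high in replicate 3 at 11.57 (others 11.11 to 11.2).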

How the results depend on the processing

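Members called between STZ and untreated mice numbered 5 and became 15 with array weights (22% of all genes were then called). With any probe set of the gene counted they became 9 (15% of all genes). For 0.1% phloridzin against untreated the count of 13 became 7 with quantile normalization (16.7% of all genes), 21 with array weights (20.8%), 21 with the beta-actin ratio as a covariate (19.1%) and 23 with any probe set (19.9%). For 0.5% against untreated the count of 1 became 0 with median centring and 0 without a filter. It became 2 with the 60th percentile filter, 2 with a trended robust prior and 4 with array weights (20.2% of all genes). With the beta-actin ratio it became 2 (both lower, 11.4%), and with any probe set 3 (13.9%). The F test's 4 became 15 with array weights and 7 with the trended robust prior. With quantile normalization the count for 0.5% against untreated stayed at 1, but that call was lower where the main one was higher. The members' median turned from 0.06 to -0.01 with quantile normalization for 0.1% phloridzin against STZ. For 0.5% against untreated it turned from 0.02 to -0.0027 with the beta-actin ratio and to -0.003 without replicate 3 of the 0.5% group. Between STZ and untreated mice the medians of complexes IV and V turned from 0.02 and 0.04 to -0.03 and -0.01 with the beta-actin ratio. With 1 array left out the counts ran from 2 to 7, 4 to 23 and 0 to 2 for the 3 comparisons with untreated mice and from 3 to 8 for the F test. They stayed at 0 to 0 in the comparisons among STZ groups. Counts printed here without a share of all genes cannot be set against one.

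With the group means removed, same-numbered arrays correlated at -0.41 to 0.5, at a median of 0.076 and above 0.1 in 13 of 30 pairs. Arrays of different numbers were not compared in this way, so these values cannot decide whether the numbers pair the mice. With the replicate number as a block, 5, 14 and 2 members were called against untreated mice and 5 in the F test. The shares of all genes called with this block are not given here.

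Of single calls between STZ and untreated mice, Ndufa10, Cox7c and Uqcrc2 were lost with the mean of probe sets (limma adjusted p = 0.388, 0.121 and 0.0964). Ndufs1 was lost with quantile normalization (limma adjusted p = 0.0579), without a filter (0.0517) and with the beta-actin ratio (limma adjusted p = 0.0505). Ndufa10 and Cox6b2 stayed called with each of the 20 arrays left out (largest limma adjusted p 0.0268 and 0.0392), where Uqcrc2 did in 15 of 20, Cox7c in 14 and Ndufs1 in 13. The causes were not tested. Centring on the median moved the share of higher calls over all genes from 50% to 69.1%, and 71 of 86 members were then above 0. Signals near background limit Cox6b2, Cox7c and Cox6a2.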
